A study of Mus musculus with 12 samples.

Results

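The Hox genes of mouse spinal cord were examined library by library in a bulk RNA sequencing study of injury and cell transplantation. All protein-coding genes of the count table whose symbol is Hoxa, Hoxb, Hoxc or Hoxd followed by a number were taken, which gave 39 of 46078 genes. Of these, 32 of the 16527 genes that passed the filter on low counts could be tested, and the other 7 (Hoxa13, Hoxb1, Hoxb13, Hoxc12, Hoxc13, Hoxd12 and Hoxd13) had too few reads. The 39 genes lie in 4 clusters, 11 in HoxA on chromosome 6, 10 in HoxB on chromosome 11, 9 in HoxC on chromosome 15 and 9 in HoxD on chromosome 2. In GRCm38, the mouse genome build of the files, the clusters span chr6:52155590-52260880, chr11:96194316-96368256, chr15:102921103-103036852 and chr2:74668310-74765142.

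The 12 libraries form 4 groups of 3: spinal cord injury (SCI), SCI with syngeneic mesenchymal stem cells (MSC, stromal cells from a genetically matched donor), SCI with allogeneic MSC (an unmatched donor), and non-injured cord. The host strain is C57BL6/cJ in every group. Neither the level nor the length of the cord pieces is stated by the labels, nor are the donor strain, the time since injury, or the sex and age of the hosts. The labels do not say whether the libraries of a group come from separate animals, so p-values measure the spread between these libraries, which may be technical.

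Hox proteins are homeodomain transcription factors that give cells their position along the head to tail axis. Within each cluster the genes are numbered by paralogue group, 1 to 13, and the order along the chromosome follows the order along the body, so that low numbers start in the hindbrain and high numbers are restricted to the tail end. In the developing cord, genes of the middle groups mark the neck and arm levels and the chest, paralogues 10 and 11 mark the lumbar and sacral levels, and paralogues 12 and 13 the most caudal part. Cells of the adult cord keep much of this pattern, which makes Hox transcripts a marker of the level from which a piece of cord was taken.

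Total counts ranged from 8705942 (SCI + allogeneic MSC 2) to 26151928 (non-injured 1), with 4486 to 23146 reads on Hox genes. Libraries are named here by group and a running number that pairs nothing between groups. The tissue label fitted the genes measured: Chat, the acetylcholine-synthesising enzyme of motor neurons, was at 15.6 to 35.5 CPM (CPM is counts scaled to a common library size with TMM factors) in the 12 libraries, and the forebrain regulators Otx2 and Six3 had 0 counts in all of them. Non-injured 3 stood apart: mitochondrial genes took 10.9% of its reads (4.998% to 8.80% elsewhere), with a summed level of 6 myelin genes of 77522 CPM against 32068 and 40458 CPM in the other non-injured libraries.

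Hox levels were low at both ends of the numbering and high in the middle. Per kilobase of exon, the most abundant genes were Hoxb8, with a mean of 43.5 RPKM (CPM per kilobase of merged exons) over the 12 libraries, Hoxc10 (28.6 RPKM), Hoxd8 (22.9 RPKM), Hoxb9 (22.5 RPKM) and Hoxa7 (18.3 RPKM). Paralogue 1 was led by Hoxd1 at 0.616 RPKM, paralogue 11 by Hoxa11 at 1.82 RPKM, paralogue 12 by Hoxc12 at 0.258 RPKM and paralogue 13 by Hoxd13 at 0.0554 RPKM. Hoxa13 and Hoxb13 had 1 read each in all 12 libraries together, and Hoxb1, a hindbrain gene, had 10.

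**Figure D1:**
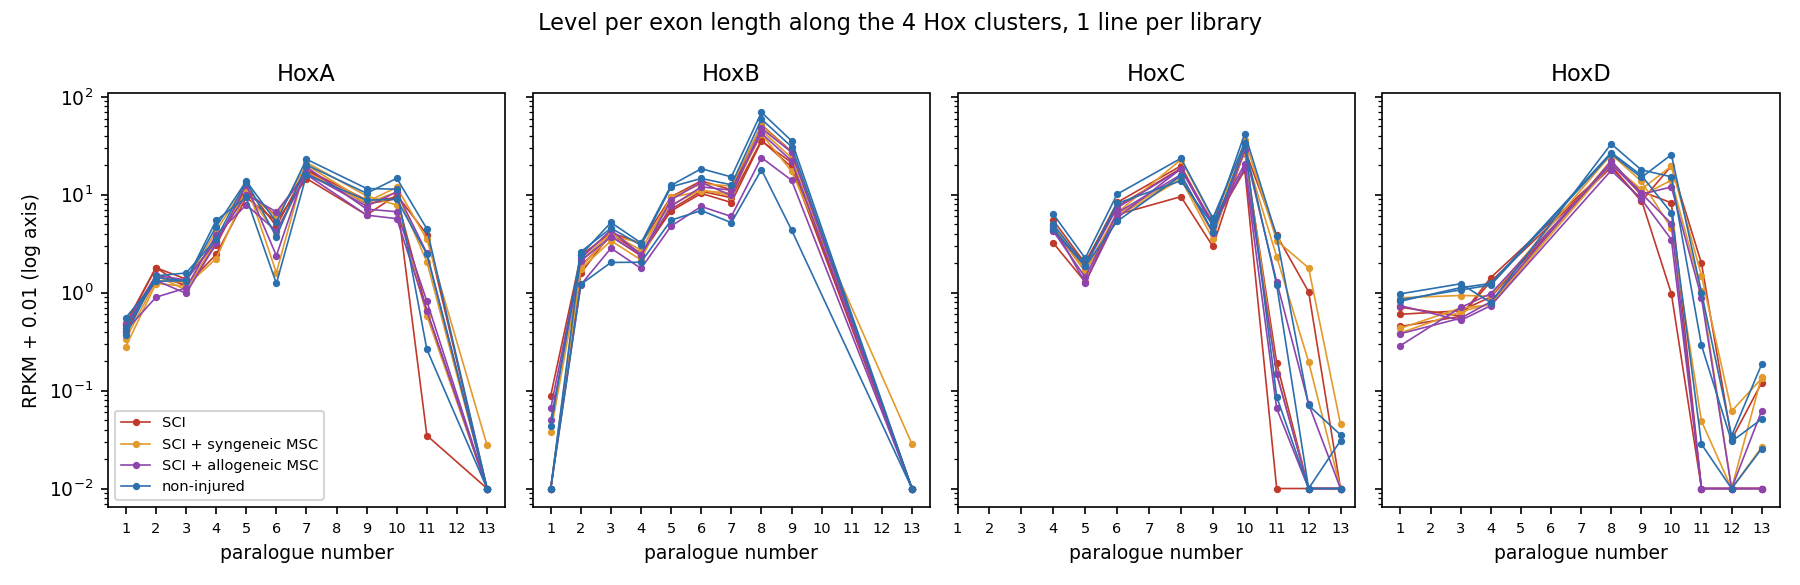
Level of each Hox gene (RPKM + 0.01, log axis) against its paralogue number in the 4 clusters, with 1 line per library coloured by group. The highest points are Hoxa7, Hoxb8, Hoxc10 and Hoxd8, each the highest of its cluster by mean level, and the lines lie far apart at Hoxd10 and at paralogue 11, where each of the 4 groups has high and low libraries. The low blue line in HoxB is non-injured 3.

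The shares of all Hox reads gave the same picture without any scaling between libraries. Paralogues 6 to 8 took 42.4% to 51.7% of Hox reads in the 12 libraries, paralogue 9 took 18.2% to 21.5%, and paralogue 10 took 10.6% to 19.9%. Paralogues 11 to 13 took between 0.00914% (1 of 10939 Hox reads, SCI 3; 95% Wilson interval 0.00161% to 0.0518%) and 4.17% (482 of 11561 reads, SCI 2; interval 3.82% to 4.55%). Both extremes are therefore in the SCI group. Intervals cover counting error only, since reads without molecular identifiers are not independent molecules.

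The share of the caudal genes, paralogues 9 to 13, was 35.6% ± 5.68 in SCI, 36.9% ± 4.02 with syngeneic MSC, 33.7% ± 3.03 with allogeneic MSC and 38.0% ± 3.26 in non-injured cord (mean ± SD, n = 3 each). The 4 group means ran from 33.7% to 38.0%, and the groups overlapped. Without non-injured 3 the non-injured mean was 37.3%. Within groups, the share of paralogues 10 to 13 was 13.3%, 23.7% and 10.6% in SCI 1, 2 and 3, and 21.4%, 12.7% and 18.1% with syngeneic MSC 1, 2 and 3. It was 17.1%, 12.4% and 11.2% with allogeneic MSC, against 12.8%, 20.4% and 21.4% in non-injured cord. The widest Wilson half-width of these shares was 0.964 percentage points, so the spread within groups was larger than counting error.

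The genes at the caudal end differed most between libraries of the same group. Spread within groups was measured by the biological coefficient of variation (CV), the square root of edgeR's dispersion per gene, with a median of 15.9% over all genes tested. Hoxd11 had the highest CV of all 16527 genes tested, at 186%, Hoxc11 was at rank 3 (132%), Hoxa11 at rank 12 (97.5%) and Hoxd10 at rank 63 (69.7%). The 6 tested genes of paralogues 10 and 11 ranged from 18.3% to 186% (median 83.6%), against 11.9% to 45.2% (median 18.8%) for the 26 genes of paralogues 1 to 9. Hoxc10 (18.3%) and Hoxa10 (20.9%) did not share the spread of Hoxd10. Without non-injured 3, Hoxd11 was again at rank 1 of 16728 genes tested (193%), with Hoxc11 at 136%, Hoxa11 at 100.5% and Hoxd10 at 71.8%.

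**Figure D2:**
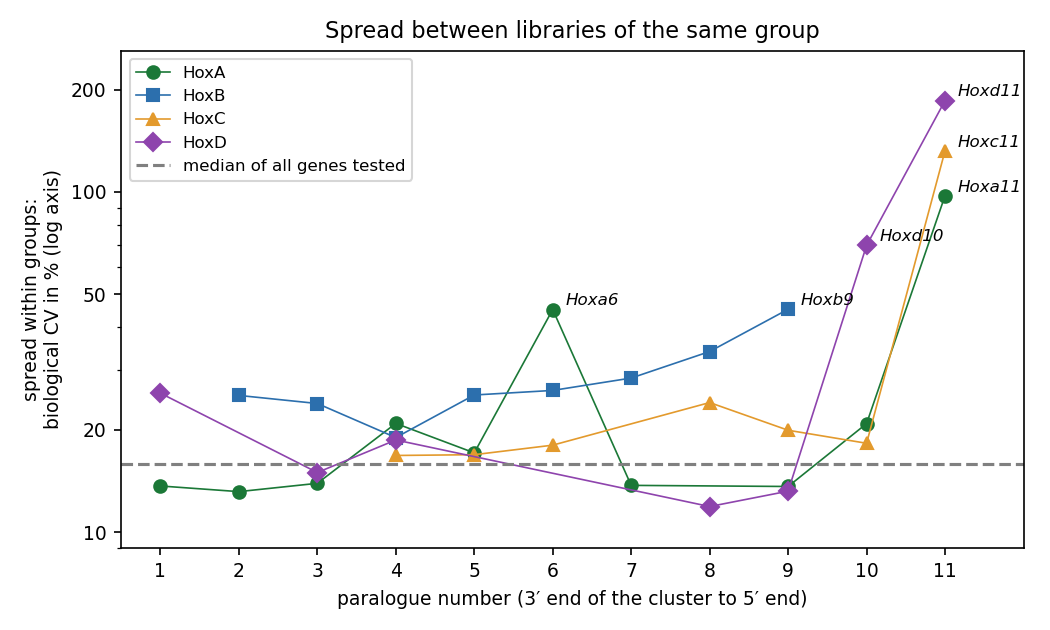
Spread between libraries of the same group (biological CV in %, log axis) for the 32 tested Hox genes against paralogue number, 1 line per cluster, with the median of all genes tested as a dashed line at 15.9%. Hoxd10, Hoxa11, Hoxc11 and Hoxd11 stand at 69.7% or above, and Hoxd8 is the lowest point at 11.9%.

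Hoxd11 (ENSMUSG00000042499, chr2:74679557-74687016), which with its paralogues patterns the forearm, the kidney and the sacral skeleton in mice, was at 0, 8.34 and 0 CPM in SCI 1, 2 and 3. It was at 6.24, 0.163 and 4.30 CPM with syngeneic MSC and 3.69, 0 and 0 CPM with allogeneic MSC, against 0.0772, 4.18 and 1.18 CPM in non-injured cord. The high libraries were SCI 2, syngeneic 1 and 3, allogeneic 1 and non-injured 2 and 3, so every group held high and low libraries and the groups overlapped. The gene had 152 counts in SCI 2 and 0 in SCI 1 and SCI 3. Taking 3 counts as the limit that a count of 0 allows, SCI 2 exceeded SCI 1 by 45.4-fold. The lower end of the 95% counting interval for this pair was 36.5-fold. In non-injured cord, replicate 2 exceeded replicate 1 by 54.1-fold (67 and 2 counts, 95% counting interval 14.4 to 456).

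Hoxc11 (ENSMUSG00000001656, chr15:102954427-102957708), the HoxC gene of the same paralogue group, was high in the same libraries. It was at 0.367, 7.79 and 0 CPM in SCI, 6.86, 0.286 and 4.69 CPM with syngeneic MSC, 2.59, 0.113 and 0.276 CPM with allogeneic MSC, and 0.154, 7.55 and 2.41 CPM in non-injured cord. Hoxa11 (ENSMUSG00000038210, chr6:52242106-52245810) was at 1.47, 8.94 and 0.0566 CPM in SCI, 7.99, 1.31 and 4.69 CPM with syngeneic MSC, 5.77, 1.47 and 1.84 CPM with allogeneic MSC, and 0.579, 10.2 and 5.64 CPM in non-injured cord. For both genes the same 6 libraries were highest, and the groups overlapped. Of the exon bases of Hoxa11, 35.0% overlap Hoxa11os on the other strand. The libraries are stranded, but the labels do not state the strand setting of the counting, so it is not known whether the counts of the pair are separate.

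Hoxd10 (ENSMUSG00000050368, chr2:74691924-74695105), which with Hoxc10 specifies lumbar motor neurons, was at 15, 35.8 and 1.76 CPM in SCI and 35.5, 8.25 and 25.5 CPM with syngeneic MSC. It was at 21.8, 6.31 and 9.17 CPM with allogeneic MSC, against 11.9, 46.6 and 27.7 CPM in non-injured cord. The 6 libraries with the most Hoxd11 were also the 6 with the most Hoxd10. The lowest of these 6 was at 21.8 CPM and the next library, SCI 1, at 15 CPM. Within SCI, library 2 exceeded library 3 by 20.4-fold (653 and 31 counts, interval 14.2 to 30.3), and within the other 3 groups the highest library exceeded the lowest by 4.31-fold (syngeneic), 3.45-fold (allogeneic) and 3.93-fold (non-injured).

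**Figure D3:**
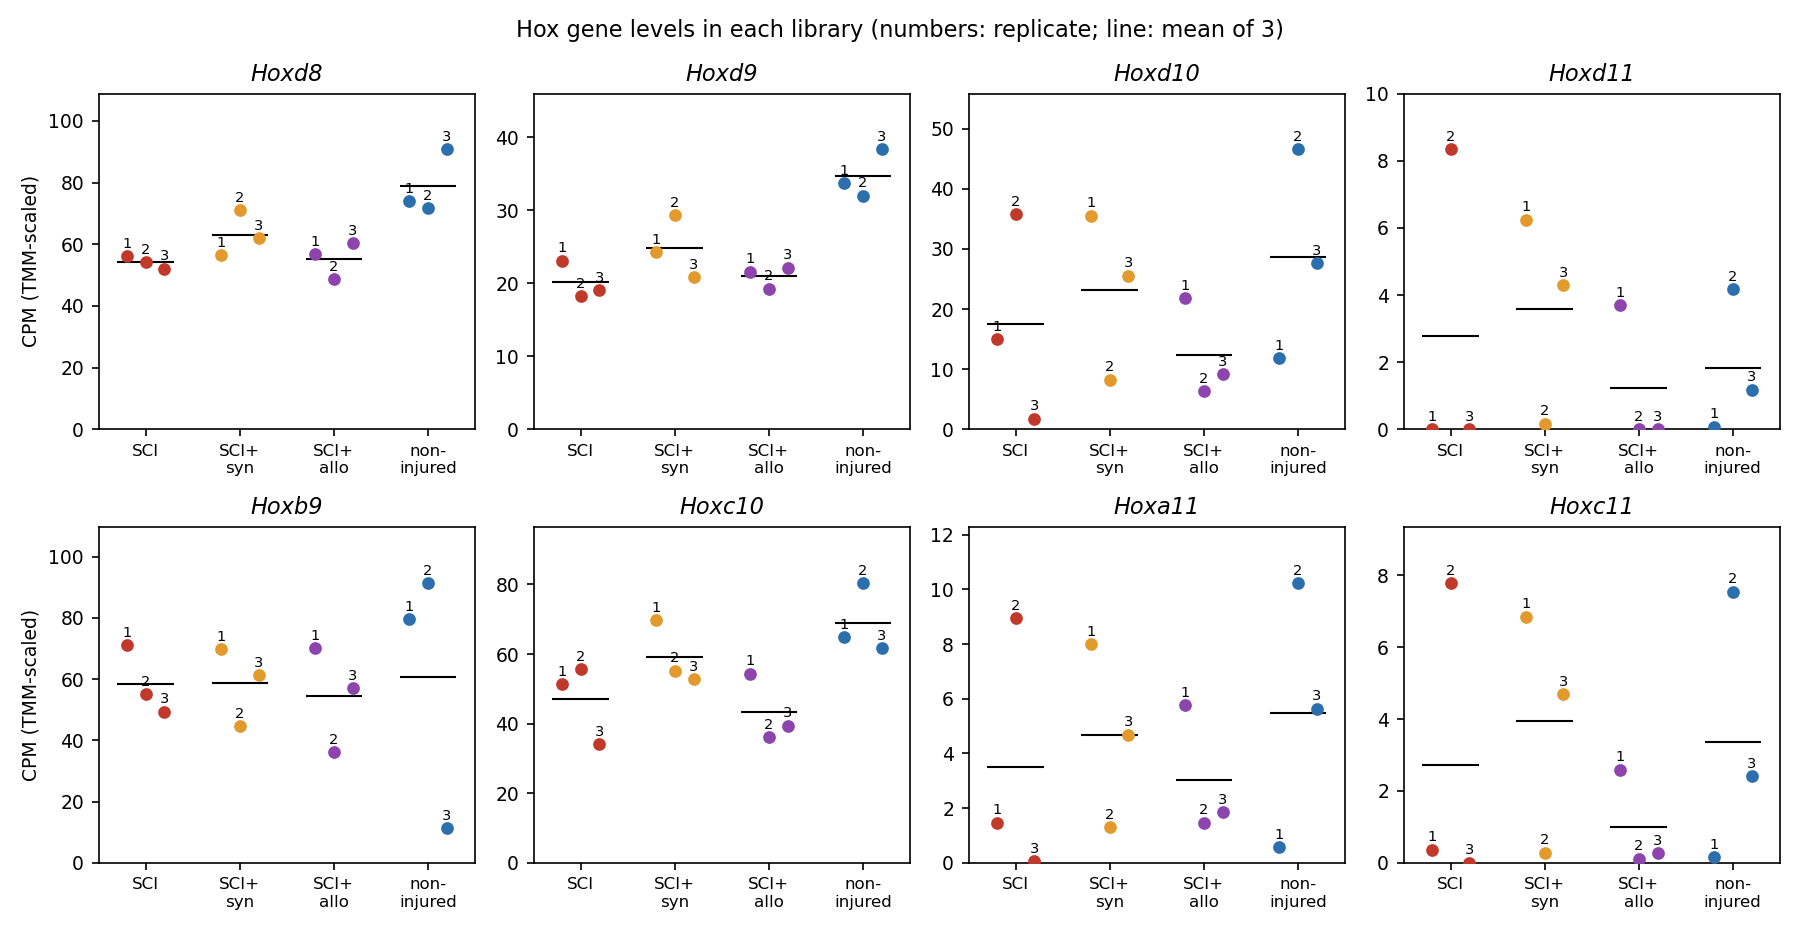
Level in each library (CPM, TMM-scaled; points numbered by replicate, line at the mean of 3) of 8 Hox genes in SCI, SCI + syngeneic MSC, SCI + allogeneic MSC and non-injured cord. Hoxd10, Hoxd11, Hoxa11 and Hoxc11 split every group into high and low libraries, Hoxd8 and Hoxd9 sit highest in non-injured cord, and Hoxb9 has 1 low point, non-injured 3, at 11.2 CPM.

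The antisense and long noncoding RNAs of these loci, chosen after their values were seen, were high in the same libraries. Hotair, transcribed from the strand opposite to Hoxc11 within the HoxC cluster, was at rank 2 of all genes for spread within groups (CV 133%), with 2, 61 and 1 counts in SCI, 83, 0 and 24 with syngeneic MSC, 8, 0 and 5 with allogeneic MSC, and 2, 42 and 15 in non-injured cord. Hoxa11os, whose counts may share reads with Hoxa11, was at rank 18 (CV 86.7%). Both had their 6 highest levels in the 6 libraries named for Hoxd11. Hoxc12, not tested, had 0, 19 and 0 counts in SCI, 42, 0 and 3 with syngeneic MSC, 1, 0 and 0 with allogeneic MSC, and 0, 1 and 0 in non-injured cord. It was thus found mainly in SCI 2 and syngeneic 1. Hoxd13, the most abundant gene of its paralogue group and a regulator of digit and genital development, was at 0, 0.274 and 0 CPM in SCI, 0.306, 0.0408 and 0.321 CPM with syngeneic MSC, 0.130, 0 and 0 CPM with allogeneic MSC, and 0.0386, 0.437 and 0.102 CPM in non-injured cord. Its groups overlapped.

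A gene outside the clusters had another pattern. Slc17a7, the vesicular glutamate transporter VGLUT1, which in the cord marks the column of Clarke in the chest and upper lumbar levels and is best known from cortical neurons, was at rank 4 for spread within groups (CV 127%) and was chosen after its values were seen. It had 12, 4 and 40 counts in SCI, 4, 114 and 12 with syngeneic MSC, 35, 17 and 64 with allogeneic MSC, and 116, 0 and 0 in non-injured cord. In SCI, with syngeneic MSC and in non-injured cord, its highest library was the one with the lowest Hoxa11 level of the group. The allogeneic group did not share this pattern. There Slc17a7 was highest in allogeneic 3 (2.95 CPM) and lowest in allogeneic 2 (1.92 CPM), the library with the lowest Hoxa11 level (1.47 CPM). Allogeneic 1, with the highest Hoxa11 level of the group (5.77 CPM), lay between them at 2.27 CPM. The cord level of the pieces is not in the labels, and its part in these differences was not tested.

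**Figure D4:**
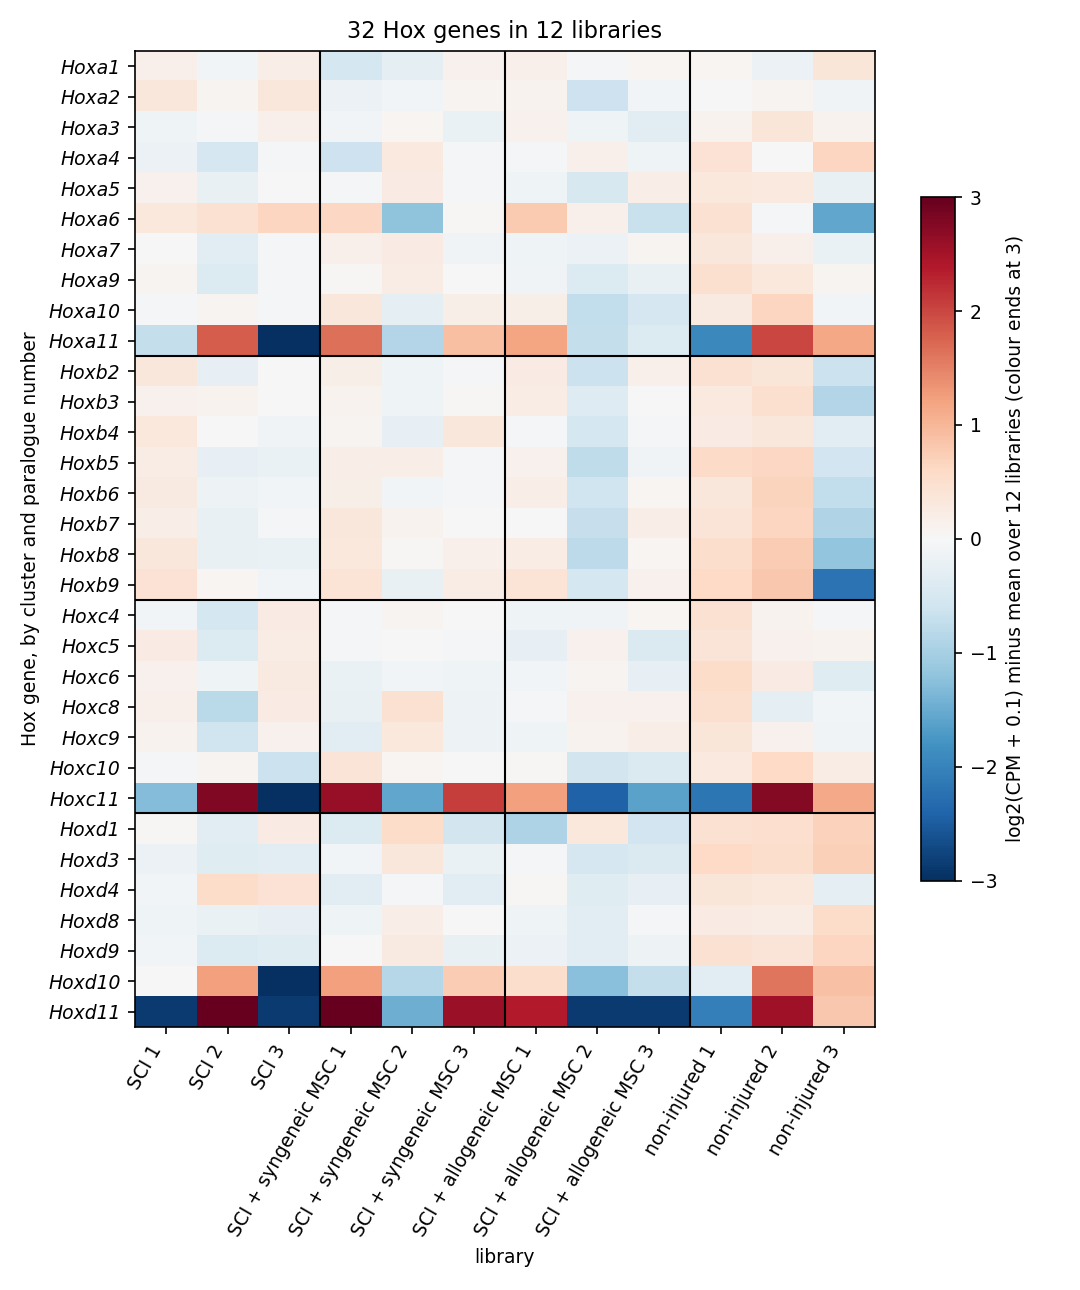
Levels of the 32 tested Hox genes (rows, by cluster and paralogue number) in the 12 libraries (columns, by group), as log2(CPM + 0.1) minus the mean over the 12 libraries, with colours that end at 3. The rows Hoxa11, Hoxc11, Hoxd10 and Hoxd11 change colour between libraries of each group, and the HoxB rows are blue in non-injured 3.

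The Hox genes that differed least and most between libraries within groups both lie in HoxD. RefSeq promoter sequences were matched for 22 of the 39 Hox genes by symbol, as 24 windows of 250 bases before a transcript start on the mouse build GRCm38.p6. Windows are shown for Hoxd8, the least variable Hox gene, and for Hoxd10 and Hoxd11, which lie near it on the plus strand of chromosome 2. Capitals mark matches, on either strand, to TTTATG (the core read by the caudal-type CDX factors) or TGATTNAT (a joint site of PBX and HOX proteins), which do not overlap each other in these windows.
Hoxd8, chr2:74704365-74704614: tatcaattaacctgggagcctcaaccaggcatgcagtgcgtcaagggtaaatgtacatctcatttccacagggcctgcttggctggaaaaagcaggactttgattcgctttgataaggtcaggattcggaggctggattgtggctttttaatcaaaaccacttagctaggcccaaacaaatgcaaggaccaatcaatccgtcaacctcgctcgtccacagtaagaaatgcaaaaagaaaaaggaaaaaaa
Hoxd10, chr2:74691641-74691890: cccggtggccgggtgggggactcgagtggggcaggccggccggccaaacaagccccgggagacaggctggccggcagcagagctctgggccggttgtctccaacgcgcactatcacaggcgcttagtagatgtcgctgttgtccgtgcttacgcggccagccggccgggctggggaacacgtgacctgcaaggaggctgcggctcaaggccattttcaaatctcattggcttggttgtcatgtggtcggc
Hoxd11 (outer start), chr2:74679308-74679557: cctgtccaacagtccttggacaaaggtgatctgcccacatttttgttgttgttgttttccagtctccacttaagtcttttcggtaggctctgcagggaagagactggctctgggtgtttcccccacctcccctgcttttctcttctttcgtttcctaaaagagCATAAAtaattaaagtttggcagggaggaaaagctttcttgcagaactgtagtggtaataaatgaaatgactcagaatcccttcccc
Hoxd11 (inner start), chr2:74682073-74682322: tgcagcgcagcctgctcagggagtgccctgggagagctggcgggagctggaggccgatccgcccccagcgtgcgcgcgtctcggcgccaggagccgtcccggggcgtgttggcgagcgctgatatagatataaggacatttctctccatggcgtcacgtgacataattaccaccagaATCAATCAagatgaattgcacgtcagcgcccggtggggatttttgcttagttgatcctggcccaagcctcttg

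The outer window of Hoxd11 held 1 match to the CDX letters, read on the minus strand, whose leftmost base is at position -87 from the start. The inner window held 1 match to the PBX-HOX letters, at position -73, also on the minus strand. Among all 32817 windows of this length, 10.8% held the CDX letters and 2.83% the PBX-HOX letters. On either strand neither was found in the windows of Hoxd8 and Hoxd10. The windows of the steady Hoxd9 (CV 13.2%) and the variable Hoxa11 (CV 97.5%), not shown, held neither as well. GC content was 44.4% for Hoxd8, 65.6% for Hoxd10, and 44.8% and 60.4% for the outer and inner windows of Hoxd11, against a median of 52.4% over all windows. The windows of Hoxd10 and of the inner Hoxd11 start held 20 CpG dinucleotides each, those of Hoxd8 and of the outer start 6 and 2, against a median of 6. A match is a description of letters, and the files hold no binding data.

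The genes of paralogues 1 to 9, with CVs of 11.9% to 45.2%, were steadier than Hoxd10, Hoxa11, Hoxc11 and Hoxd11. They were not all steadier than Hoxc10 (18.3%) and Hoxa10 (20.9%). Hoxd8 (ENSMUSG00000027102, chr2:74704615-74707933), the most abundant HoxD gene per length, was at 56.1, 54.3 and 52.1 CPM in SCI, 56.5, 70.9 and 61.9 CPM with syngeneic MSC, 56.7, 48.6 and 60.3 CPM with allogeneic MSC, and 73.9, 71.7 and 90.7 CPM in non-injured cord. Every injured library lay below every non-injured one. Hoxd9 (ENSMUSG00000043342, chr2:74697727-74700208), which with the other group 9 genes acts at the chest to lumbar boundary, was at 23.1, 18.3 and 19.0 CPM in SCI, 24.2, 29.3 and 20.8 CPM with syngeneic MSC, 21.6, 19.3 and 22.1 CPM with allogeneic MSC, and 33.7, 32 and 38.3 CPM in non-injured cord. Again no injured library reached the non-injured range. Hoxd3 (ENSMUSG00000079277, chr2:74711927-74748442), which patterns the first neck vertebra in mice, was at 2.69, 2.36 and 2.38 CPM in SCI, 2.88, 3.88 and 2.63 CPM with syngeneic MSC, 2.92, 2.14 and 2.26 CPM with allogeneic MSC, and 4.67, 4.43 and 5.12 CPM in non-injured cord, also without overlap. Of the exon bases of Hoxd3, 62.3% are shared with Hoxd4 and a further gene model on the same strand, so its counts depend on how such reads were assigned.

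Against non-injured cord, SCI had 3 of 32 Hox genes lower and 0 higher (edgeR's quasi-likelihood test, Benjamini-Hochberg adjusted p below 0.05 over 16527 genes), whereas 25.8% of all genes tested were called, 16.6% higher and 9.26% lower. The share of Hox genes called lower was thus close to that of all genes. Hoxd3 fell by 0.94 on the log2 scale (SE 0.20, adjusted p = 0.00621), Hoxd8 by 0.54 (SE 0.12, adjusted p = 0.00891) and Hoxd9 by 0.79 (SE 0.14, adjusted p = 0.00242). The count was 5 without non-injured 3, which added Hoxa9 and Hoxb5, and 6 by DESeq2. Over 12 alternative settings the 3 calls held, with adjusted p up to 0.0320, 0.0397 and 0.0159. Counts of 0 genes higher compare with 0 at an unadjusted p below 0.05, and with 0 by DESeq2 and by limma-voom.

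With allogeneic MSC, 5 of 32 Hox genes were lower than in non-injured cord and 0 higher, whereas 24.9% of all genes were called, 16.7% higher and 8.17% lower. They were the same 3 HoxD genes, with log2 fold changes of -0.95 (Hoxd3, SE 0.20, adjusted p = 0.00569), -0.51 (Hoxd8, SE 0.12, adjusted p = 0.0113) and -0.72 (Hoxd9, SE 0.14, adjusted p = 0.00357), joined by Hoxa9 (-0.55, SE 0.15, adjusted p = 0.0189) and Hoxc10 (-0.67, SE 0.21, adjusted p = 0.0348). No Hox gene was higher at an unadjusted p below 0.05, nor by DESeq2 or limma-voom. The count was 9 without non-injured 3, which added Hoxa10, Hoxb5, Hoxb8 and Hoxc6. It was 3 without allogeneic 2, without allogeneic 3 or without non-injured 1. Over the 12 alternatives the adjusted p of Hoxd3 and Hoxd9 stayed at or below 0.0275 and 0.0202, whereas those of Hoxd8, Hoxa9 and Hoxc10 reached 0.0554, 0.0808 and 0.130.

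With syngeneic MSC, 0 of 32 Hox genes were called against non-injured cord by edgeR (3 lower and 0 higher at an unadjusted p below 0.05; 1 by DESeq2, 0 by limma-voom), where 5.34% of all genes were called, 4.92% higher and 0.424% lower. Hoxd3, Hoxd8 and Hoxd9 had log2 fold changes of -0.59 (SE 0.19, adjusted p = 0.112), -0.32 (SE 0.12, adjusted p = 0.177) and -0.48 (SE 0.14, adjusted p = 0.0710). Without syngeneic 2, which had the highest Hoxd3, Hoxd8 and Hoxd9 levels of its group, Hoxd3 (-0.78, adjusted p = 0.0351) and Hoxd9 (-0.62, adjusted p = 0.0183) passed. These 3 comparisons share the non-injured libraries, so their directions are not independent.

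Hoxa9, a group 9 gene also known from blood stem cells, was at 49.1, 34.6 and 44.9 CPM in SCI, 47.1, 54.0 and 45.6 CPM with syngeneic MSC, 42.6, 34.5 and 39.7 CPM with allogeneic MSC, and 64.5, 57.7 and 49.0 CPM in non-injured cord. The allogeneic libraries lay below all non-injured ones, and the SCI and syngeneic ranges overlapped them. Hoxc10, a lumbar gene, was at 51.4, 55.7 and 34.0 CPM in SCI, 69.8, 55.3 and 52.7 CPM with syngeneic MSC, 54.4, 36.1 and 39.4 CPM with allogeneic MSC, and 64.8, 80.4 and 61.8 CPM in non-injured cord. Its SCI and allogeneic libraries lay below the non-injured range. In SCI the log2 fold changes were -0.41 for Hoxa9 (SE 0.15, adjusted p = 0.0585) and -0.55 for Hoxc10 (SE 0.21, adjusted p = 0.0699), which missed the threshold.

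Over the 32 genes, the median log2 fold change against non-injured cord was -0.21 in SCI (0.0082 over all genes tested), -0.18 with syngeneic MSC (0.03 over all genes) and -0.33 with allogeneic MSC (-0.01 over all genes). Negative signs were given by 27, 29 and 31 of the 32 genes in the 3 comparisons. These signs are not independent: the 3 comparisons share the non-injured libraries, and genes of a cluster can move together. Groups did not overlap, with the injured one lower, for 6 genes in SCI (21.2% of all genes), for 5 with syngeneic MSC (7.18%) and for 6 with allogeneic MSC (15.9%). Hoxa2 was the only Hox gene without overlap in the other direction in these 3 comparisons, in SCI (26.3% of all genes; 13.7% with syngeneic and 21.1% with allogeneic MSC). The summed level of the 39 genes was 665 ± 66.1 CPM in SCI, 734 ± 43.1 CPM with syngeneic MSC, 626 ± 109.6 CPM with allogeneic MSC and 821 ± 197 CPM in non-injured cord (mean ± SD, n = 3 each), and the ranges overlapped through non-injured 3, at 598 CPM. The other non-injured libraries, at 894 and 971 CPM, lay above all 9 injured libraries (506 to 784 CPM), and the non-injured mean was 932 CPM without non-injured 3, left out after seeing the data.

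**Figure D5:**
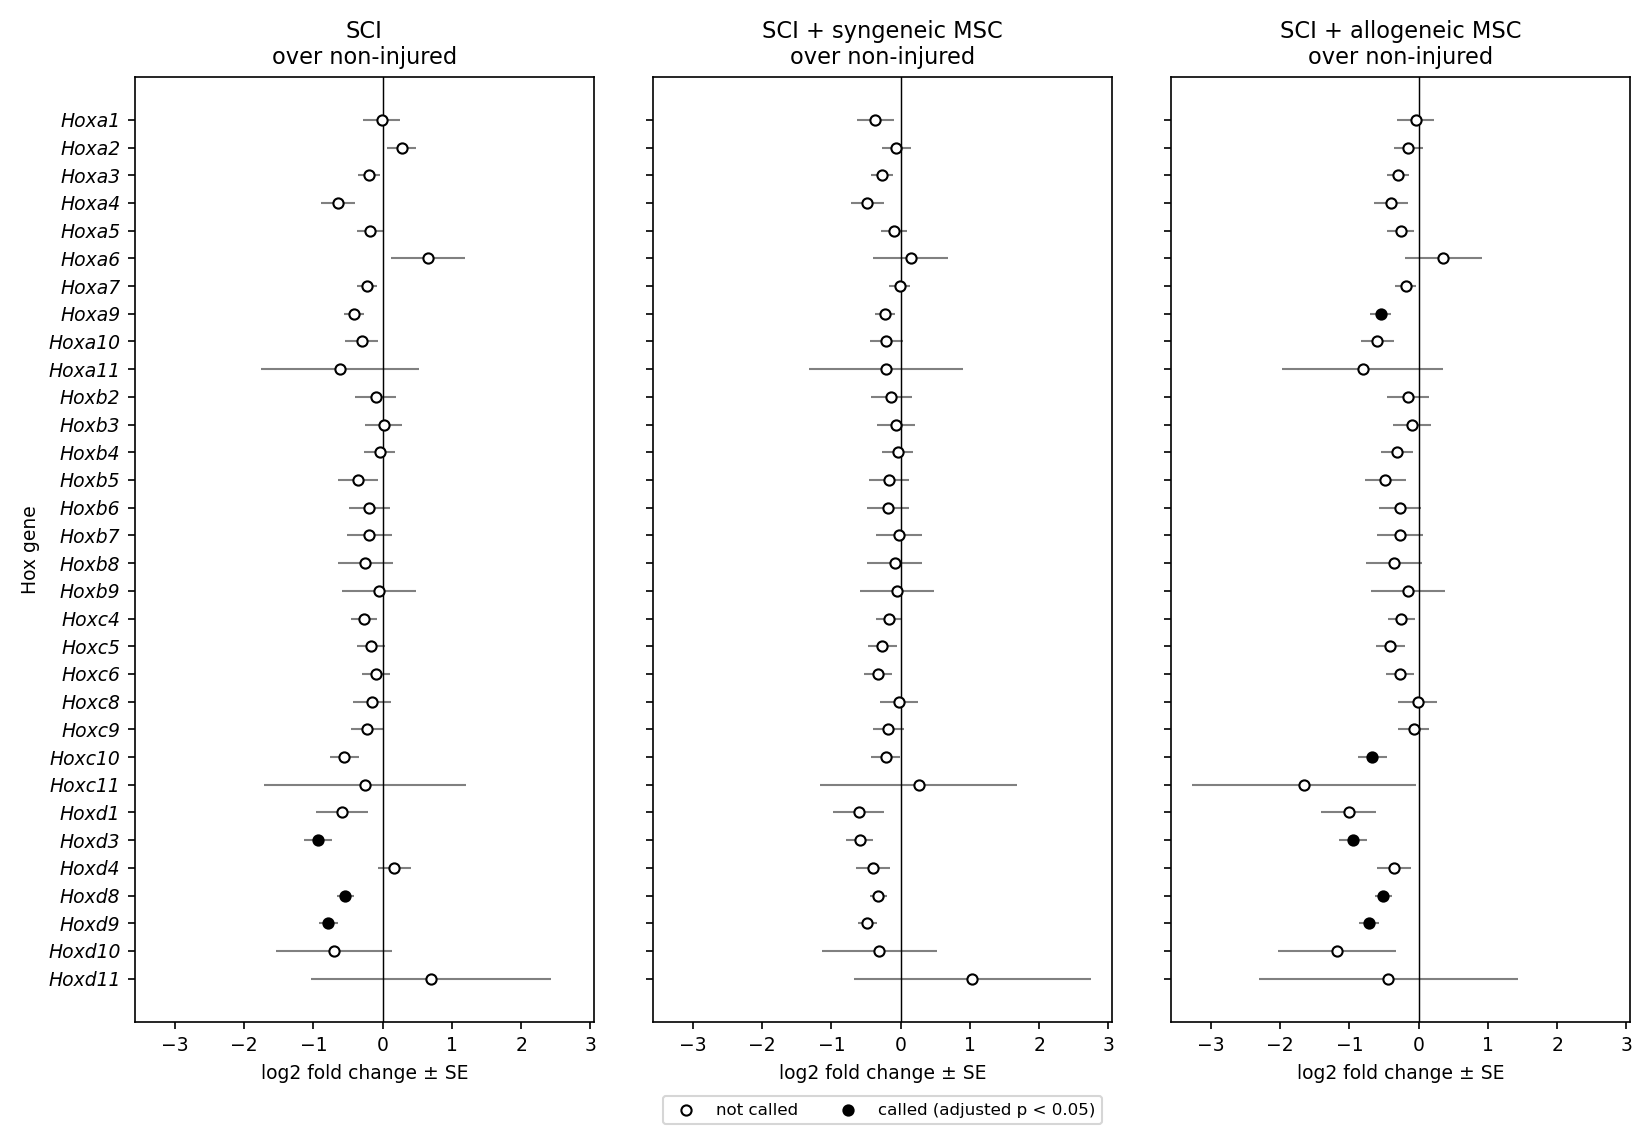
Log2 fold change (x axis, with its SE as a bar) of the 32 tested Hox genes (rows) in SCI, SCI + syngeneic MSC and SCI + allogeneic MSC, each over non-injured cord. Filled points passed an adjusted p of 0.05 (3, 0 and 5 genes, all lower), and the bars are widest for Hoxa11, Hoxc11, Hoxd10 and Hoxd11.

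In bulk tissue, fewer cells of a type and less RNA per cell cannot be told apart, and markers of cell types moved with injury in these samples. The summed level of 8 microglial and macrophage markers, all 8 called higher in SCI and with allogeneic MSC and 7 with syngeneic MSC, was 945 to 1129 CPM in SCI, 437 to 963 CPM with syngeneic MSC and 935 to 1264 CPM with allogeneic MSC, against 169 to 229.9 CPM in non-injured cord. The summed level of 10 neuronal markers, of which 4 were called lower in SCI, 0 with syngeneic MSC and 4 with allogeneic MSC, was 6586 to 8300.3 CPM, 8504 to 11423 CPM and 6729 to 8480.2 CPM in the same order, against 11887 to 13559 CPM. No marker of either list was at 0 in any library. Of 8 motor neuron markers, 5 were lower in SCI, 0 with syngeneic MSC and 2 with allogeneic MSC, and their sum was 279 to 339.9 CPM, 369 to 489.6 CPM and 280.1 to 421 CPM, against 429 to 771 CPM in non-injured cord. The part of these shifts in the lower Hoxd3, Hoxd8 and Hoxd9 levels was not tested.

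The 4 caudal genes that varied most did not pass the test in SCI, and their errors were wide. The log2 fold change of SCI over non-injured cord was -0.70 for Hoxd10 (SE 0.83, adjusted p = 0.584), -0.62 for Hoxa11 (SE 1.14, adjusted p = 0.738), -0.25 for Hoxc11 (SE 1.46, adjusted p = 0.925) and 0.70 for Hoxd11 (SE 1.73, adjusted p = 0.807). These errors leave room for large differences in either direction. The sign of the last 3 turned when a library was left out: Hoxd11 rests on SCI 2, the only SCI library with reads of it, and Hoxa11 gave 0.20 and Hoxc11 1.15 without non-injured 2.

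Between the injured groups 0 Hox genes were called by edgeR in any of the 3 comparisons, and 0 by DESeq2, limma-voom or any other alternative run. Of all genes, 0.0363% were called for syngeneic MSC over SCI (0.00605% higher, 0.0303% lower), 0.188% for allogeneic MSC over SCI (0.169% higher, 0.0182% lower) and 0.611% for syngeneic over allogeneic MSC (0.0182% higher, 0.593% lower). At an unadjusted p below 0.05 there was 1 Hox gene (Hoxd4, lower) for syngeneic MSC over SCI, 0 for allogeneic MSC over SCI and 1 (Hoxa9, higher) for syngeneic over allogeneic MSC. The summed level of 10 mesenchymal stromal cell markers, 1 of them (Pitx1) at 0 in all libraries, was 676 to 746 CPM with syngeneic MSC, 644 to 742 CPM with allogeneic MSC, 611 to 766 CPM in SCI and 715 to 835 CPM in non-injured cord, which received no cells. Most of it was Thy1, also a neuronal gene, at 384 to 670.2 CPM. Against non-injured cord, 4 of the 8 tested stromal markers were called higher in SCI, 1 with syngeneic MSC and 3 with allogeneic MSC. Of all genes, 16.6%, 4.92% and 16.7% were higher. Called lower were 1, 0 and 1 of the 8 (9.26%, 0.424% and 8.17% of all genes). Between injured groups, in the order of comparisons above, the median log2 fold change of the 32 Hox genes was 0.10, -0.11 and 0.17. Over all genes it was 0.0041, 0.0014 and 0.02. Groups did not overlap for Hoxd8, higher with syngeneic MSC than in SCI (12.2% of all genes), for Hoxa2, lower in the same comparison (11.5%), and for Hoxa9, higher with syngeneic than with allogeneic MSC (5.2%). There were 0 such genes lower with syngeneic than with allogeneic MSC (7.03% of all genes), and 0 in either direction for allogeneic MSC over SCI (4.21% higher, 3.29% lower).

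The HoxB cluster set non-injured 3 apart. The summed level of the HoxB genes was 312, 229 and 228 CPM in SCI, 306, 244 and 271 CPM with syngeneic MSC, 294, 157 and 260.3 CPM with allogeneic MSC, and 354, 408 and 114 CPM in non-injured cord. Non-injured 3 was thus the lowest of the 12 libraries, and the other non-injured libraries the highest. The summed level of the HoxD genes in non-injured 3, at 167 CPM, was by contrast the highest of the 12, next to 129 and 164 CPM in non-injured 1 and 2.

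The difference was largest at the Hoxb9 end of the cluster. Hoxb2, a regulator of facial motor neurons in the hindbrain, was at 8.33, 5.49 and 6.51 CPM in SCI, 7.38, 6.04 and 6.35 CPM with syngeneic MSC, 7.78, 4.17 and 7.33 CPM with allogeneic MSC, and 9.08, 8.42 and 4.2 CPM in non-injured cord. Hoxb3, of whose exon bases 52.9% overlap Hoxb3os on the other strand, was at 17.4, 17.0 and 16.0 CPM in SCI, 17.1, 14.4 and 16.2 CPM with syngeneic MSC, 18.5, 12.1 and 15.8 CPM with allogeneic MSC, and 19.3, 22.1 and 8.61 CPM in non-injured cord. For both genes non-injured 3 and allogeneic 2 were the low libraries, and the groups overlapped.

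Hoxb6 was at 27.2, 20.2 and 21.3 CPM in SCI, 25.5, 21.5 and 22.0 CPM with syngeneic MSC, 26.2, 14.9 and 23.6 CPM with allogeneic MSC, and 28.8, 36.2 and 13.5 CPM in non-injured cord. Hoxb8, needed for the dorsal horn circuits of pain and itch in mice, was at 136, 92.9 and 94.6 CPM in SCI, 134, 110.0 and 120.0 CPM with syngeneic MSC, 126, 63.0 and 112 CPM with allogeneic MSC, and 156, 183 and 47.4 CPM in non-injured cord. Hoxb9 was at 71.0, 55.1 and 49.4 CPM in SCI, 69.8, 44.7 and 61.2 CPM with syngeneic MSC, 70.0, 36.2 and 57.0 CPM with allogeneic MSC, and 79.6, 91.4 and 11.2 CPM in non-injured cord. In all 3 genes non-injured 3 was the lowest library and non-injured 2 the highest, so the non-injured range enclosed the other groups. By edgeR, the log2 fold change of Hoxb9 in SCI over non-injured cord was -0.054 (SE 0.54, adjusted p = 0.960), and -0.56 without non-injured 3. Non-injured 2 exceeded non-injured 3 by 3.86-fold for Hoxb8 (2932 and 926 counts, 95% counting interval 3.58 to 4.16) and by 8.14-fold for Hoxb9 (1464 and 219 counts, interval 7.06 to 9.43). The CV within groups was 26.1% for Hoxb6, 28.4% for Hoxb7, 34.0% for Hoxb8 and 45.2% for Hoxb9, and without non-injured 3 it was 17.0%, 17.7%, 20.2% and 20.2% for the same genes.

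Genes of the dorsal horn, chosen after their values were seen, were low in the same library. Tac2, a neurokinin peptide of dorsal horn interneurons, had 5 counts (0.256 CPM) in non-injured 3, against 13.7 and 24.9 CPM in non-injured 1 and 2 and 7.43 to 18.9 CPM in the 9 injured libraries. Grpr, the itch receptor for gastrin-releasing peptide, had 0 counts in non-injured 3 and 12 and 20 counts in non-injured 1 and 2, and Nmur2, the receptor for neuromedin U, had 0 counts against 49 and 58. Tac1, which encodes substance P, was at 2.97 CPM in non-injured 3, against 13.9 and 23.8 CPM in the others of its group. Chat was not low there, at 32.6 CPM against 33.6 and 35.5 CPM. Whether the HoxB levels, the dorsal horn genes, the myelin genes and the mitochondrial share of non-injured 3 differ for a shared reason was not tested.

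Of the other most abundant members, those of paralogues 1, 4, 5 and 7 had CVs of 13.7% (Hoxa7) to 25.6% (Hoxd1) within groups. Hoxd1, known in mice from pain-sensing neurons, was at 1.10, 0.823 and 1.3 CPM in SCI, 0.786, 1.63 and 0.706 CPM with syngeneic MSC, 0.518, 1.35 and 0.691 CPM with allogeneic MSC, and 1.51, 1.56 and 1.79 CPM in non-injured cord. Its SCI and allogeneic libraries lay below the non-injured range, without passing the test. Hoxc4, a gene of the neck level, was at 11.3, 8.23 and 14 CPM in SCI, 11.4, 12.6 and 11.9 CPM with syngeneic MSC, 10.9, 10.9 and 12.3 CPM with allogeneic MSC, and 16.3, 12.8 and 11.4 CPM in non-injured cord. SCI 2 was low and the groups overlapped. Hoxa5, which with Hoxc5 specifies the phrenic motor neurons of the diaphragm, was at 22.6, 17.6 and 20.4 CPM in SCI, 20.04, 24.4 and 20.3 CPM with syngeneic MSC, 18.8, 14.8 and 23.7 CPM with allogeneic MSC, and 25.8, 25.6 and 17.6 CPM in non-injured cord. Hoxa7 was at 52.0, 42.1 and 51.1 CPM in SCI, 57.7, 61.6 and 48.9 CPM with syngeneic MSC, 47.7, 46.2 and 55.2 CPM with allogeneic MSC, and 66.2, 58.1 and 45.8 CPM in non-injured cord. In both genes non-injured 3 was the lowest of its group, and the groups overlapped.

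Outside HoxB, Hoxa6 varied most among paralogues 1 to 9, with a CV of 45.1% at rank 481 (36.4% at rank 708 without non-injured 3). It was at 4.16, 4.66 and 5.32 CPM in SCI, 5.20, 1.39 and 3.40 CPM with syngeneic MSC, 5.83, 3.72 and 2.07 CPM with allogeneic MSC, and 4.60, 3.25 and 1.08 CPM in non-injured cord. The low libraries were syngeneic 2 and non-injured 3, and the groups overlapped. Among all libraries, SCI 2, one of those high in Hoxd11, was the lowest of the 12 for Hoxc4, Hoxc8 (27 CPM) and Hoxc9 (7.19 CPM), of which Hoxc9 represses arm-level genes in chest motor neurons. The other HoxC genes of the neck and chest levels were lowest elsewhere, Hoxc5 in allogeneic 3 (3.87 CPM) and Hoxc6 in non-injured 3 (12.9 CPM). The 13 tested Hox genes whose levels are not given for each group varied at most 2.94-fold (Hoxb7) between the extreme libraries.

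The partners of Hox proteins and the factors that set Hox expression were counted in lists. Of 11 TALE homeodomain cofactors, which bind DNA together with Hox proteins, 3 were higher in SCI, 1 with syngeneic MSC and 3 with allogeneic MSC than in non-injured cord, and 0 were lower. Of all genes, 16.6%, 4.92% and 16.7% were higher in the same comparisons. Tgif1 had a log2 fold change of 2.54 in SCI (SE 0.31, adjusted p = 0.000303). The median log2 fold change of the list in SCI was 0.09. Microglial and macrophage markers were higher in the same comparisons (8, 7 and 8 of 8), and their part in these list counts was not tested.

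Of 16 tested genes of retinoic acid signalling, the vitamin A pathway that activates front Hox genes in the embryo, 7 were higher in SCI, 0 with syngeneic MSC (edgeR; 5 at an unadjusted p below 0.05) and 8 with allogeneic MSC, and 0 were lower. Of all genes, 16.6%, 4.92% and 16.7% were higher and 9.26%, 0.424% and 8.17% lower. The list's median log2 fold changes were 0.70, 0.31 and 0.59. Dhrs3, which turns retinaldehyde back to retinol, had a log2 fold change of 2.18 in SCI (SE 0.42, adjusted p = 0.00358). Fibroblast and meningeal markers moved in the same comparisons: 7, 0 and 8 of 10 were called higher, and their sum was 1084 to 1615 CPM in SCI, 197 to 1024 CPM with syngeneic MSC and 453 to 1533 CPM with allogeneic MSC, against 109 to 233 CPM in non-injured cord. Their part in the result was not tested.

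Of the signals and factors of axial patterning in the embryo, 6 of 12 could be tested. The caudal factor Cdx2 and the tail bud signals Fgf8 and Wnt3a had 0 counts in all 12 libraries, and Cdx1 and Cdx4 were at 0 in 10 and 11 of them. Of these 6 genes, 2 were higher in SCI: Tgfbr1, a receptor subunit for GDF11 and TGF-beta (log2 fold change 1.82, SE 0.24, adjusted p = 0.000391), and Gdf11, the signal that starts the trunk to tail switch in the embryo (0.44, SE 0.15, adjusted p = 0.0493). With allogeneic MSC 2 of the 6 were higher and with syngeneic MSC 1, beside the same shares of all genes and the same rise in microglial markers, whose part was not tested. The call of Gdf11 did not hold under all 12 alternatives (adjusted p 0.00965 to 0.135).

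Chromatin regulators that keep Hox genes off (Polycomb) or on (Trithorax) were counted beside the 25.8%, 5.34% and 24.9% of all genes called in SCI, with syngeneic and with allogeneic MSC over non-injured cord. Of 20 Polycomb genes, 1 was higher and 1 lower in SCI and with allogeneic MSC, and 0 with syngeneic MSC. Of 10 Trithorax genes and histone H3 lysine 27 demethylases, 0 were called in any of the 6 comparisons (edgeR; 2 at an unadjusted p below 0.05 with allogeneic MSC over non-injured cord and 0 in the other 5 comparisons). Of 9 tested long noncoding RNAs of the clusters, 2 were lower in SCI: Hoxb3os (log2 fold change -0.83, SE 0.20, adjusted p = 0.0105, and 0.00238 to 0.0503 over the alternatives) and Haglr, which overlaps Hoxd3 on the other strand (-1.05, SE 0.34, adjusted p = 0.0433, and 0.0187 to 0.159). With allogeneic MSC 1 was lower, and with syngeneic MSC 0. Of 7 tested homeobox genes outside the clusters, 1, the interneuron gene En1, was lower in SCI (-0.96, SE 0.28, adjusted p = 0.0255, and 0.0131 to 0.0997) and with allogeneic MSC, and 0 with syngeneic MSC. Between the injured groups 0 genes of these lists were called by edgeR.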

How the data were processed

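RNA was made into stranded poly(A) libraries, per the labels' protocols. Per the submitters' processing notes, reads were handled with STAR 2.5.1, featureCounts 1.5.1, FastQC 0.11.5, StringTie 1.3.3, Picard and Trim Galore 0.4.1, on GRCm38. The authors deposited merged read counts per gene, used unchanged. All 12 libraries (4 groups of 3) were fitted in edgeR 4.0.16 (R 4.3.3) with filterByExpr (minimum count 10, minimum total 15), TMM factors and the robust quasi-likelihood test (8 residual degrees of freedom). Benjamini-Hochberg adjustment ran over 16527 genes, with a threshold of 0.05. The code was checked on simulated counts. RPKM used merged GENCODE exons on GRCm38. Alternatives included DESeq2 1.42.0, limma-voom 3.58.1, other scalings, no filter, a fit of 2 groups, and leaving out each library. Ratios of libraries carry 95% exact binomial counting intervals, and 3 counts were the limit for a count of 0.

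Values in each library are given for Hox genes called in at least 1 of the 6 comparisons and for the most abundant gene, per exon length, of each cluster and paralogue group. From other lists, counts and up to 2 called genes of smallest p are named, except that some genes are not reported here. Hoxd10, Hoxd11, Hoxc11, Hoxa6, the lowest HoxC genes of SCI 2, the noncoding RNAs, Slc17a7, Chat and the dorsal horn genes were named after their values were seen. Members and lists were chosen with earlier results of these data known.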

Additional observations from a re-analysis of the deposited data

How the results depend on the processing

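Under other scalings (RLE factors, library totals), no filter, limma-voom and fits of the 2 groups alone, the counts of Hox genes called stayed within 1.5 times the values reported. DESeq2 called 6 for SCI over non-injured cord (Hoxa4, Hoxa9 and Hoxc10 added) and 1 for syngeneic MSC over non-injured cord (Hoxd9). Leaving out 1 library gave 3 to 5 calls for SCI over non-injured cord (5 without non-injured 3, adding Hoxa9 and Hoxb5), 0 to 2 for syngeneic MSC (2 without syngeneic 2) and 3 to 9 for allogeneic MSC. Without allogeneic 2, Hoxa9, Hoxc10 and Hoxd8 lost their calls and Hoxd1 gained one, and without allogeneic 3 or non-injured 1, Hoxa9 and Hoxc10 lost theirs. Between the injured groups the count was 0 in all 13 alternatives of each comparison, 1 of which, leaving non-injured 3 out of the shared fit, was chosen after seeing the data. For SCI over non-injured cord, the log2 fold change with 1 library left out ranged from -2.84 to 0.20 for Hoxa11, -4.15 to 1.15 for Hoxc11, -8.01 to 2.24 for Hoxd11 and -0.56 to 0.36 for Hoxb9. The lowest Hoxd11 value leaves SCI libraries with 0 counts, so it depends on the prior count and is no bound. By limma-voom, Hoxd11 was at -1.68 and Hoxb9 at 0.42, and the cause was not tested. Outside the counts of calls and the shares, 30 values lost and 9 gained their call, 10 turned sign, 5 within-group CVs (Hoxb3 and Hoxb6 to Hoxb9) moved by over 1.5 times without non-injured 3, an alternative chosen after seeing the data, and 327 did none of these. Depth limits the genes with few reads at either end of the clusters, since a count of 0 allows up to 0.345 CPM in the shallowest library. No paired analysis was possible because the labels give the groups no shared replicate numbers.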
